A study of Mus musculus with 16 samples.

Results

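The unfolded protein response and the integrated stress response are described here through 10 genes in dorsal root ganglia (DRGs): Atf4, Ddit3, Chac1, Trib3, Asns, Sesn2, Hspa5, Xbp1, Herpud1 and Sdf2l1. They were picked by gene symbol, each matched to 1 Ensembl identifier, and all 10 were found among the 52636 genes counted and passed the filter on low counts. The data are 16 RNA-sequencing libraries of L3-6 DRGs, with 1 male C57Bl6/J mouse behind each and 4 mice per group. Sham-Saline mice had sham surgery and saline, SNI-Saline mice had a tibial spared nerve injury (SNI) of the left hindleg and saline, and Sham-DMI and SNI-DMI mice had the same surgeries and desipramine (DMI), a tricyclic antidepressant. From 4 weeks after surgery, DMI was given intraperitoneally over 3 weeks (15 mg/kg, 2 times daily), and all mice were 3-4 months old. The study's methods name the common peroneal and sural nerves as the branches cut and give months, not weeks, between surgery and treatment. L3-6 DRGs also hold neurons of branches that this surgery spares.

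Cells answer stress in the endoplasmic reticulum (ER) through the unfolded protein response. Its sensors Perk (gene Eif2ak3), Ire1 (Ern1) and Atf6 sit in the ER membrane; Ire1 splices the Xbp1 transcript, Atf6 is cut to release a transcription factor, and Perk phosphorylates eIF2alpha. Phosphorylation of eIF2alpha, also made by kinases that sense amino acid shortage, virus or haem loss, slows translation in general while Atf4 is translated more, and this shared arm is called the integrated stress response. Atf4 protein then drives genes of amino acid supply and, under lasting stress, Ddit3 (CHOP). In sensory neurons, Atf4 and its relative Atf3 are known from the response to axon injury. Gene counts record transcript amount, and neither Xbp1 splicing nor eIF2alpha phosphorylation was measured.

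Reads on genes ran from 41194238 to 73920332 per library, and every member had at least 198 reads in every library. Levels are CPM, read counts scaled to library size with the TMM factors of edgeR, given as mean ± SD of 4 mice. Changes are log2 fold changes from edgeR's quasi-likelihood test over 21371 genes, and a gene was called at a Benjamini-Hochberg adjusted p under 0.1. The labels give spinal cord as tissue and dorsal root ganglia as cell type. Summed markers of sensory neurons held 11090 to 13620 CPM per library and those of spinal cord 40.66 to 61.01 CPM, with Olig2 and Slc32a1 of the latter under the filter. The numbers in the library titles run from 17 to 24 in DMI mice and from 33 to 40 in saline mice; whatever these numbers order cannot be told apart from DMI.

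Per kilobase of exon (RPKM), the members differed widely in level. Atf4 stood at 78.8 RPKM over the groups, the ER chaperone Hspa5 (BiP) at 71.3 RPKM and asparagine synthetase Asns at 67.4 RPKM. Herpud1 (24.2 RPKM), Xbp1 (23.6 RPKM) and Ddit3 (17.9 RPKM) were intermediate. Sdf2l1, an ER-resident partner of chaperones, held 8.20 RPKM, and the glutathione-degrading enzyme Chac1 (3.96 RPKM), the pseudokinase Trib3 (2.58 RPKM) and the stress-induced mTORC1 inhibitor Sesn2 (1.87 RPKM) were lowest. The group mean was lowest in Sham-Saline for each member but Sesn2, which was lowest in Sham-DMI. It was highest in SNI-DMI for 7 members, in Sham-DMI for Trib3 and Asns, and in SNI-Saline for Sesn2.

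**Figure D1:**
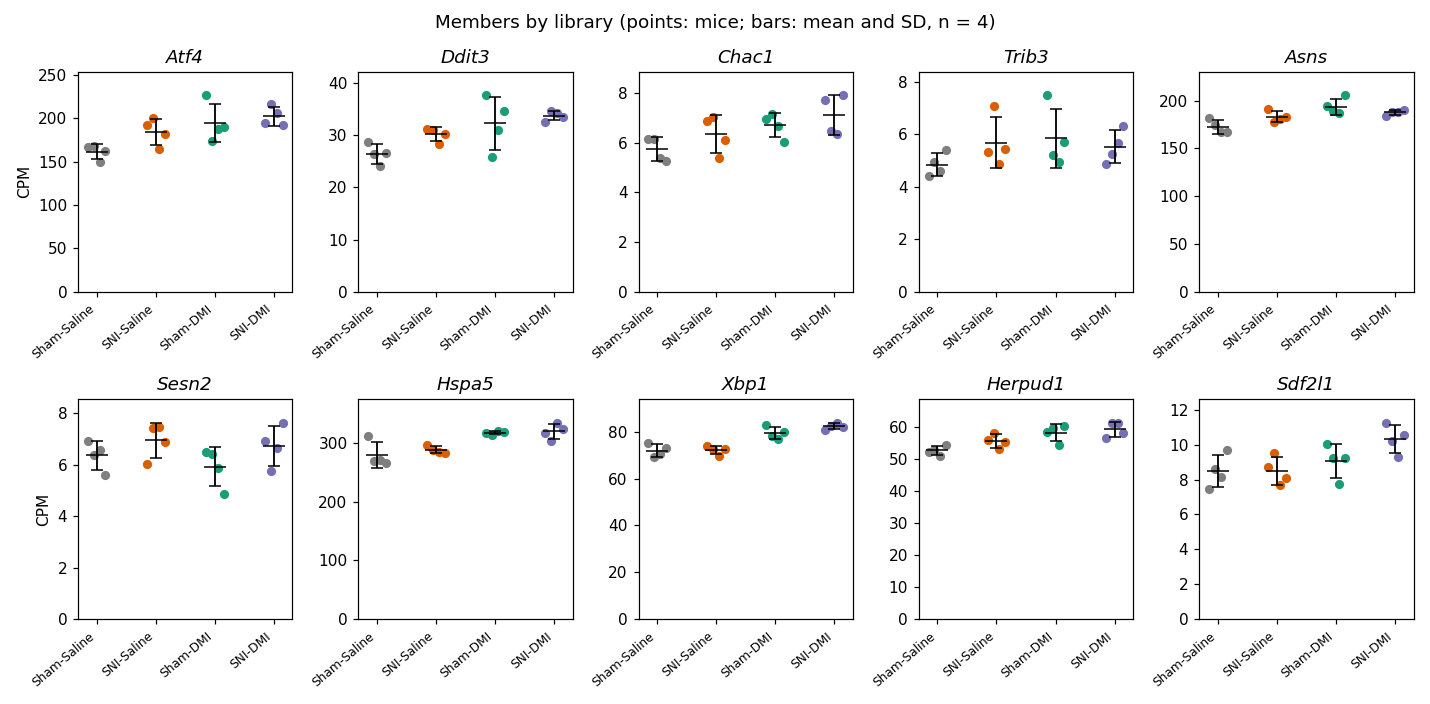
CPM of each member (vertical axis, from 0) in the 16 libraries, by group (horizontal axis); points are mice, and bars show the mean and SD of 4 mice. Hspa5 and Xbp1 lay higher in both DMI groups than in the saline groups except for 1 Sham-Saline mouse in Hspa5, and Trib3 and Sesn2 overlapped between all groups.

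In sham mice, DMI was accompanied by higher levels of 6 of the 10 members (Atf4, Ddit3, Asns, Hspa5, Xbp1 and Herpud1), by 10.58% to 21.98%. No member fell. Over all genes tested, 23.4% were called in this comparison and 11.6% were called higher. The median log2 fold change was 0.17 over the members and -0.02 over all genes. None of the 10 passed the nominal rule of the study, p under 0.05 and a log2 fold change of at least 0.32 in size, which 11.5% of all genes passed.

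Atf4 (ENSMUSG00000042406, chromosome 15, 80255184-80257541 in GRCm38), the transcription factor of the integrated stress response, read 167, 168, 149.6 and 162 CPM in the 4 Sham-Saline mice. In Sham-DMI it read 226.5, 174, 188 and 189.8 CPM, so the groups did not overlap. The log2 fold change was 0.27 ± 0.07 (SE), with an adjusted p of 0.0204. Ddit3 (ENSMUSG00000025408, chromosome 10, 127290774-127296288), the transcription factor CHOP, read 28.8, 26.4, 24.03 and 26.6 CPM in Sham-Saline and 37.6, 25.8, 31.0 and 34.6 CPM in Sham-DMI. It rose by a log2 fold change of 0.29 ± 0.09 (adjusted p = 0.0307), although the Sham-DMI mouse at 25.8 CPM lay within the Sham-Saline range. Ddit3 shares 68 exon bases with Mars on the other strand, and whether the counting used strand is not given in the sources used here.

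Asns (ENSMUSG00000029752, chromosome 6, 7675169-7693254), which makes asparagine and is a target of Atf4, read 182, 174, 166.9 and 167 CPM in Sham-Saline and 194, 189, 187 and 205.5 CPM in Sham-DMI. The change was 0.17 ± 0.04 (adjusted p = 0.0161), without overlap. The other Atf4 targets among the members were not called: Chac1 had a log2 fold change of 0.23 ± 0.11 (adjusted p = 0.172), Trib3 of 0.27 ± 0.14 (adjusted p = 0.205) and Sesn2 of -0.10 ± 0.12 (adjusted p = 0.593). Chac1 (ENSMUSG00000027313, chromosome 2, 119351229-119354381) ranged from 5.25 to 6.17 CPM in Sham-Saline and from 6.04 to 7.18 CPM in Sham-DMI. Trib3 (ENSMUSG00000032715, chromosome 2, 152337422-152344032) ranged from 4.42 to 5.404 CPM and from 4.94 to 7.48 CPM, and Sesn2 (ENSMUSG00000028893, chromosome 4, 132492032-132510501) from 5.60 to 6.92 CPM and from 4.87 to 6.51 CPM. These 3 low-level genes had standard errors of 0.11 to 0.14, against 0.04 to 0.09 in the 6 called members.

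Hspa5 (ENSMUSG00000026864, chromosome 2, 34771970-34777547), the main ER chaperone of the Hsp70 class, read 313, 269.7, 271 and 267 CPM in Sham-Saline and 318, 314, 320.3 and 319 CPM in Sham-DMI. The groups did not overlap, but Sham-Saline replicate 1 lay close to the DMI mice and apart from the other 3. The log2 fold change was 0.18 ± 0.05 (adjusted p = 0.02). Xbp1 (ENSMUSG00000020484, chromosome 11, 5520659-5525893), the factor made active by Ire1, read 75.4, 69.1, 70.3 and 72.9 CPM in Sham-Saline and 82.9, 78.2, 77.1 and 80.0 CPM in Sham-DMI. It rose by 0.14 ± 0.04 on the log2 scale (adjusted p = 0.0242), again without overlap. Herpud1 (ENSMUSG00000031770, chromosome 8, 94386438-94395377), a membrane protein of ER-associated degradation, read 52.4, 53.0, 51.2 and 54.4 CPM and then 58.5, 59.9, 54.6 and 60.3 CPM. The lowest Sham-DMI mouse stood just above the highest Sham-Saline mouse, and the change was 0.14 ± 0.05 (adjusted p = 0.0427). Sdf2l1 (ENSMUSG00000022769, chromosome 16, 17130138-17132383) ranged from 7.48 to 9.68 CPM and from 7.74 to 10.1 CPM and was not called (0.10 ± 0.10, adjusted p = 0.56). Among the members, 5 did not overlap between these groups and were higher with DMI, a pattern seen in 8.62% of all genes. The 6 calls held in each of 16 fits without 1 library.

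Other values moved between the same groups, where 11.6% of all genes were called higher and 11.9% lower. Of 13 markers of sensory neurons, 4 were called higher and 1 lower. Of these 13, 9 had fitted changes above 0, and the median was 0.129. Of 10 macrophage markers, 0 had fitted changes above 0 and 1 was called lower. Of the 9 markers of injured sensory neurons, Atf3 and Gadd45a among them, 6 rose, and their summed level was 306.4 to 335.3 CPM in Sham-Saline and 367 to 413.8 CPM in Sham-DMI. Of 10 tested neutrophil markers 7 fell, with a sum of 10.9 to 41.2 CPM in Sham-Saline and 4.05 to 19.1 CPM in Sham-DMI; Cxcr2 was under the filter. Of 10 tested B and plasma cell markers 4 fell, from 47.1 to 64.1 CPM to 33.8 to 49.8 CPM, with Ms4a1 and Vpreb3 under the filter. All 8 markers of endothelium and pericytes had fitted changes below 0 and 2 of them fell, with a sum of 336.6 to 386.7 CPM in Sham-Saline and 285 to 310.3 CPM in Sham-DMI, which did not overlap. The part of these markers in the result was not tested, and fewer cells of a type and less RNA per cell cannot be told apart in bulk tissue. The share of read pairs on no feature was 8.67% to 9.44% in Sham-Saline and 7.1% to 8.79% in Sham-DMI, and its part was not tested.

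In injured mice, DMI was accompanied by a higher level of 1 member, Xbp1, where 2.93% of all genes were called and 1.32% called higher. Xbp1 read 73.8, 72.8, 69.6 and 72.7 CPM in SNI-Saline and 80.8, 82.3, 83.9 and 82.2 CPM in SNI-DMI, with no overlap. The log2 fold change was 0.19 ± 0.04 (adjusted p = 0.063), and the call was lost (adjusted p from 0.122 to 0.217) when replicate 1, 3 or 4 of SNI-Saline, or replicate 1, 2 or 3 of SNI-DMI, was left out. The change of Xbp1 stayed between 0.165 and 0.211 in these 6 fits, of which 5 called no gene at all and the other 38 genes. Hspa5 read 297, 288, 285 and 284 CPM in SNI-Saline and 318, 304.5, 335 and 324 CPM in SNI-DMI. Its groups did not overlap either, but its change of 0.15 ± 0.05 did not pass (adjusted p = 0.13). Ddit3 was the third member without overlap, at 28.3 to 31.3 CPM against 32.6 to 34.5 CPM, with a change of 0.16 ± 0.09 (adjusted p = 0.331). Over all genes, 7.33% were higher in SNI-DMI without overlap. Neutrophil markers moved between the same groups, with 2 of 10 called lower and a summed level of 16.45 to 52.47 CPM in SNI-Saline and 4.688 to 14.33 CPM in SNI-DMI. Their part in the result was not tested.

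The value of largest size in the injured mice belonged to Sdf2l1. It ranged from 7.69 to 9.50 CPM in SNI-Saline and from 9.27 to 11.3 CPM in SNI-DMI, and its log2 fold change of 0.28 ± 0.10 had an adjusted p of 0.156. Atf4 read 192, 199.9, 165 and 182 CPM in SNI-Saline and 195, 216.5, 206 and 192 CPM in SNI-DMI, which overlapped (0.13 ± 0.07, adjusted p = 0.343). Herpud1 read 53.1 to 58.2 CPM and 56.7 to 61.5 CPM (0.10 ± 0.05, adjusted p = 0.288). Of the enzymes and regulators downstream of Atf4, Chac1 stood at 0.165 ± 0.109, Asns at 0.03 ± 0.04, Trib3 at -0.04 ± 0.14 and Sesn2 at -0.05 ± 0.12, and none was called. The median over the members was 0.14, against -0.01 over all genes. No member passed the nominal rule, which 5.73% of all genes passed.

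Whether DMI changed the members differently under SNI and sham was tested as the difference between both effects. It passed for 0 of the 10 members and 0% of all genes by edgeR, although 1692 genes had an unadjusted p under 0.05 and DESeq2 called 16. The member with the smallest p was Asns, with a difference of -0.13 ± 0.06 on the log2 scale (adjusted p = 0.628). The 95% intervals of the difference spanned -0.35 to 0.09 for Atf4, -0.18 to 0.12 for Hspa5, -0.08 to 0.17 for Xbp1 and -0.73 to 0.11 for Trib3. So 6 calls in sham and 1 call under SNI do not show unequal effects.

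**Figure D2:**
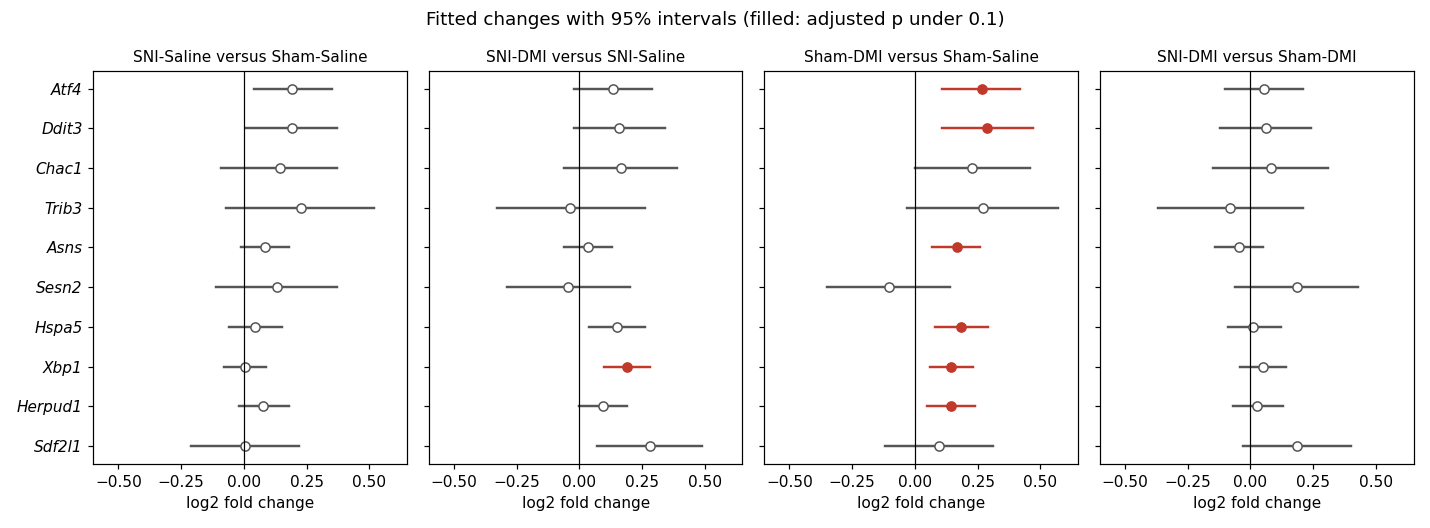
Log2 fold change of each member (horizontal axis) with its 95% interval in 4 comparisons; filled red points passed an adjusted p under 0.1 and open points did not. Filled points are the 6 members in Sham-DMI versus Sham-Saline and Xbp1 in SNI-DMI versus SNI-Saline.

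After injury alone, none of the 10 members was called, while 12% of all genes were. All 10 fitted changes in SNI-Saline versus Sham-Saline lay above 0, with a median of 0.11 against -0.001 over all genes, and 49.9% of all genes lay above 0. The values nearest to a call were those of Atf4, at 161.7 ± 8.5 CPM in Sham-Saline and 184.6 ± 15.2 CPM in SNI-Saline (log2 fold change 0.19 ± 0.07, adjusted p = 0.129). Ddit3 went from 26.4 ± 1.9 to 30.2 ± 1.3 CPM (0.19 ± 0.09, adjusted p = 0.191). Atf4 passed with upper-quartile scaling (adjusted p = 0.0928), by DESeq2 (0.0814) and in the 8 libraries of the comparison alone (0.0653), where Ddit3 passed too (0.0649). Atf4 also passed without SNI-Saline replicate 3 (0.0554) and without Sham-DMI replicate 1 (0.0568) or 2 (0.0803). The Sham-DMI libraries enter this comparison only through the shared spread and scaling. Ddit3 passed without Sham-DMI replicate 2 (0.0555). Of 16 fits without 1 library, Atf4 thus passed in 3 and Ddit3 in 1. Their adjusted p reached 0.284 and 0.366 in the others.

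The members of the ER arm had fitted changes of 0.003 to 0.08 after injury, which were not tested against those of the other members. Hspa5 had a change of 0.04 ± 0.05, Xbp1 of 0.005 ± 0.042, Sdf2l1 of 0.003 ± 0.102 and Herpud1 of 0.08 ± 0.05. The 95% interval for Xbp1 ran from -0.08 to 0.09. Asns (0.09 ± 0.04), Chac1 (0.14 ± 0.11), Trib3 (0.23 ± 0.14) and Sesn2 (0.13 ± 0.12) had adjusted p-values from 0.254 to 0.545. No member was without overlap between these groups, as against 15.4% of all genes in either direction. Under the nominal rule 7.15% of all genes passed and no member did. In DMI mice, SNI against sham gave no member called (0.402% of all genes), no member without overlap (5.04% of all genes) and adjusted p-values from 0.481 to 0.947. Atf3, a bZIP partner of Atf4 counted among the injured-neuron markers, marks the injury in the same libraries. It stood at 10.5 ± 2.2 CPM in Sham-Saline and at 52.4 ± 1.6 CPM in SNI-Saline, which is a change of 2.32 ± 0.22 (adjusted p = 2.51e-05). In SNI-DMI versus Sham-DMI its change was 1.70 ± 0.22 (adjusted p = 0.00211). Markers of cell types moved after injury alone too, where 5.85% of all genes were called higher and 6.18% lower. Of 9 injured-neuron markers 8 were called higher and 0 lower, and of 10 macrophage markers 5 higher and 0 lower. Of 10 tested B and plasma cell markers 0 were called higher and 3 lower. The part of these markers in the result was not tested.

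The fitted changes of members depended on a correction for GC content and exon length, which also shifted each library's level. The median over all genes moved with it, from -0.021 to 0.044 in Sham-DMI versus Sham-Saline. The parts of GC content, length and level were not tested. Each library's smooth trend on GC content and exon length was removed in an alternative fit. In SNI-Saline versus Sham-Saline, Atf4 then moved from 0.19 to 0.07, and Xbp1 (-0.09), Herpud1 (-0.03) and Sdf2l1 (-0.12) changed sign. In Sham-DMI versus Sham-Saline, Hspa5 moved from 0.18 to 0.29 and Ddit3 from 0.29 to 0.33, and 5 members remained called; Herpud1 did not (0.11, adjusted p = 0.138). In SNI-DMI versus SNI-Saline, Hspa5 moved from 0.15 to 0.23 and Xbp1 lost its call (0.17, adjusted p = 0.193), where 1 gene in all was called. Of all genes called in Sham-DMI versus Sham-Saline, 49.4% were higher in the main fit and 81.7% with the trends removed. In the injury comparison this share was 48.6% and 35.4%, and in SNI-DMI versus Sham-DMI it was 93% and 42.5%.

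**Figure D3:**
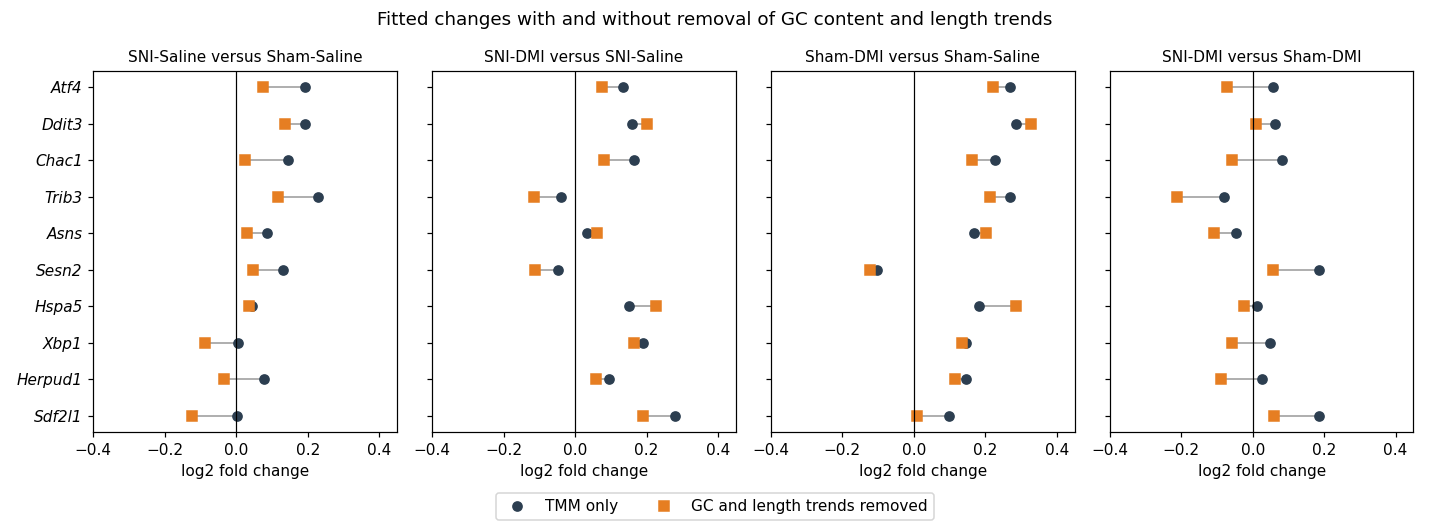
Log2 fold change of each member (horizontal axis) with TMM scaling alone (dark circles) and with each library's trends on GC content and exon length removed (orange squares), in 4 comparisons. In Sham-DMI versus Sham-Saline, 9 members lay above 0 in both fits, whereas Xbp1, Herpud1 and Sdf2l1 crossed 0 in SNI-Saline versus Sham-Saline.

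The other genes of both pathways were counted in lists. Over all genes tested, 5.85% were called higher and 6.18% lower after injury, 11.6% and 11.9% with DMI in sham, and 1.32% and 1.61% with DMI under SNI. With the trends removed these shares were 1.35% and 2.46% after injury and 14.3% and 3.19% with DMI in sham. Of 24 ER chaperones and folding enzymes, 9 rose and 4 fell in Sham-DMI versus Sham-Saline, where 11.6% of all genes rose and 11.9% fell. The Hspa5 exchange factor Sil1 (0.32), the disulfide isomerase Pdia6 (0.25) and, downward, the Hspa5 co-chaperone Dnajb9 (-0.28, adjusted p = 0.00361) had the smallest p-values. With the trends removed, 12 of the list rose and 0 fell (14.3% and 3.19% of all genes), Dnajb9 then being at -0.10 (adjusted p = 0.321). Under SNI, 6 rose and 1 fell, led by Dnajb11 (0.24), Dnajb9 (-0.25, adjusted p = 0.063) and Creld2 (0.32), and none was called with the trends removed. Dnajb9, which Xbp1 is known to induce, stood at 36.3 ± 0.7 CPM in Sham-Saline, 34.6 ± 1.2 CPM in SNI-Saline, 29.9 ± 1.2 CPM in Sham-DMI and 29.1 ± 2.2 CPM in SNI-DMI. It was therefore lower in both DMI groups, in which Xbp1 was higher. Hsp90b1 (Grp94), the ER Hsp90, had values of 0.05 and 0.10 for DMI in sham and SNI and was not called (adjusted p = 0.542 and 0.249).

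Calls in the list of 6 sensor genes were all downward. Of these 6, Ern1 (-0.27, adjusted p = 0.0201) and Mbtps2 (-0.26, adjusted p = 0.0676) fell in Sham-DMI versus Sham-Saline, where 11.9% of all genes fell. Mbtps2 is the Atf6-cleaving protease and no sensor itself, so Ern1 was the only sensor proper that was called in the main fit. The call of Ern1 was lost without Sham-Saline replicate 3 (-0.20, adjusted p = 0.117), and Mbtps2 turned to 0.04 with the trends removed. Mbtps2 also fell under SNI (-0.36, adjusted p = 0.0834), where 1.61% of all genes were called lower. Eif2ak3 (0.02 in sham, -0.08 under SNI) and Atf6 (-0.14 and -0.20) were not called. Atf6 had an adjusted p of 0.131 in sham and 0.115 under SNI. For DMI under SNI the list held 2 calls by DESeq2 and 2 on the 8 libraries alone, but 0 with the replicate number as a block. No sensor was called after injury. Of 14 genes for eIF2 kinases, eIF2, its exchange factor eIF2B and its phosphatases, 4 rose and 2 fell with DMI in sham, among them the eIF2B subunit Eif2b4 (0.30), the haem-sensing kinase Eif2ak1 (0.14) and, downward, the RNA-sensing kinase Eif2ak2 (-0.31). With the trends removed 6 rose and 0 fell. Under SNI 0 of these 14 were called. Ppp1r15a (GADD34), the stress-induced phosphatase subunit, had 0.07 in sham and 0.15 under SNI (adjusted p = 0.626 and 0.381). Ppp1r15b, its constitutive relative, was the list's only call after injury (-0.16, adjusted p = 0.0564).

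Among tRNA synthetases and genes of amino acid supply, every call was upward. Of 20 cytosolic tRNA synthetases, 8 rose and 0 fell after injury, with Sars (0.19), Aars (0.17) and Yars (0.13) in front. With DMI in sham 10 rose and 0 fell (11.6% and 11.9% of all genes), led by Sars (0.25), Kars (0.23) and Aars (0.20). With DMI under SNI 0 were called. After removal of the trends the counts of calls were 0 after injury and 16 with DMI in sham. Of all genes, 1.35% and 14.3% were then called higher in these comparisons. Single libraries moved the injury count between 2 and 10, and the count in sham between 8 and 13. Of 20 other Atf4 targets in amino acid synthesis and transport, 2 rose after injury, where 5.85% of all genes did, namely the amino acid transporter subunit Slc3a2 (0.15) and the serine-making Psph (0.23). In sham, where 11.6% of all genes rose with DMI, 3 of the 20 did. These were Slc3a2 (0.18), Psph (0.29) and the mitochondrial folate enzyme Mthfd2 (0.15). The call of Mthfd2 was lost in 4 of 16 fits without 1 library (adjusted p up to 0.135). It was also lost without a filter on low counts (adjusted p = 0.128) and on the 8 libraries alone (adjusted p = 0.116). None of the 20 was called for DMI under SNI.

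Other groups gave mixed directions. Of all genes, 5.85% were called higher and 6.18% lower after injury, and 11.6% and 11.9% with DMI in sham. Of 17 tested Atf4 targets in signalling and stress, 3 rose after injury, namely Gadd45a (0.43), Gadd45b (0.38) and the autophagy gene Map1lc3b (0.16). With DMI in sham 1 rose (Map1lc3b, 0.19) and 3 fell, with Sesn3 (-0.28) and the cell death gene Bcl2l11 (-0.39) in front; with the trends removed 1 rose and 0 fell. Nfil3 (0.44, adjusted p = 0.0906) was the call under SNI. Ddit4, an mTORC1 inhibitor and Atf4 target, had values of -0.04 after injury, -0.07 for DMI in sham and 0.09 under SNI and was not called. Of 11 bZIP factors, 2 rose after injury, Atf3 and Creb3 (0.21), and with DMI in sham 2 rose, Creb3 (0.22) and Atf3 (0.69), and Creb3l2 fell (-0.18). Atf3 lost this call without Sham-Saline replicate 4 or Sham-DMI replicate 4 (0.56 in both fits, adjusted p = 0.118 and 0.113). The call of Creb3l2 was lost in 11 of 16 fits without 1 library, its change being smallest without Sham-Saline replicate 3 (-0.08, adjusted p = 0.434). It was also lost with upper-quartile scaling, without a filter, on the 8 libraries alone and with the trends removed. Under SNI, Creb3l1 (0.29) was the call of this list.

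Of 30 genes of ER-associated degradation and translocation, 10 rose and 7 fell with DMI in sham (11.6% and 11.9% of all genes), including the ubiquitin-conjugating Ube2g2 (0.24), the lectin Erlec1 (-0.24) and the mannosidase-like Edem1 (-0.20). Removal of the trends left 11 that rose and 0 that fell. After injury 5 rose and 1 fell, led by the translocon subunits Ssr2 (0.22) and Ssr4 (0.21). Under SNI, DMI gave 1 rise, Edem2 (0.24), and 1 fall, Erlec1 (-0.23). For comparison with responses outside the ER, 5 of 12 cytosolic heat shock genes rose with DMI in sham, with Hspa8 (0.24), Hspb1 (0.29) and Hsp90ab1 (0.20) in front, and Hspb1 (0.33) and Hsp90ab1 (0.22) under SNI. None was called after injury. Of 10 genes of the mitochondrial unfolded protein response, 4 rose and 1 fell with DMI in sham, Clpp (0.29), Dnaja3 (0.15) and Yme1l1 (-0.33) having the smallest p-values. Yme1l1 turned to 0.02 with the trends removed. After injury Clpp rose (0.18) and Yme1l1 fell (-0.20), and under SNI Yme1l1 fell with DMI (-0.31). In SNI-DMI versus Sham-DMI, Atf3 and Gadd45a (0.45) were the calls in all of these lists. With the trends removed, the 10 lists held 4 calls after injury and 0 for DMI under SNI, against 29 and 15 with TMM scaling alone. Each of the 11 pathway genes named above for DMI under SNI lost its call in 6 to 10 of the 16 fits without 1 library.

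**Figure D4:**
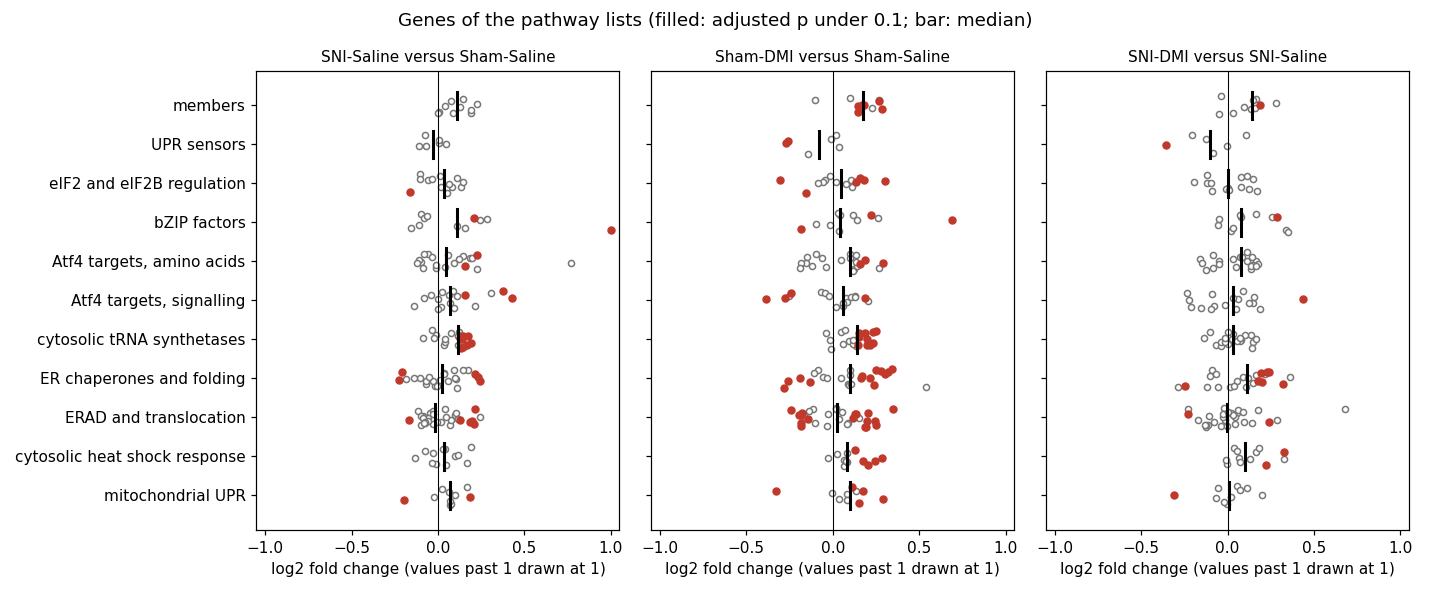
Log2 fold changes (horizontal axis, values past 1 drawn at 1) of the members and of 10 pathway lists in 3 comparisons; each point is a gene, filled red where the adjusted p was under 0.1, and black bars are medians. The tRNA synthetases held 8 calls after injury and 10 with DMI in sham, all upward, while the ER lists held calls on both sides of 0.

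Between mice of 1 group, some members varied together. Correlations were computed over the 16 libraries on log2 CPM with the group means removed, for 45 pairs, with 100000 permutations within groups and adjustment over the pairs. Atf4 and Ddit3 had Pearson's r = 0.81 (permutation p = 0.00089, adjusted 0.04) and Spearman's rho = 0.82 (permutation p = 0.00031, adjusted 0.0139). Without SNI-Saline replicate 3 and Sham-DMI replicate 1, the libraries farthest from the median of Atf4, r was 0.73. Sham-DMI replicate 1 was the highest of the group in both genes, at 226.5 and 37.6 CPM, and Sham-DMI replicate 2 the lowest, at 174 and 25.8 CPM. Ddit3 and Xbp1 followed at r = 0.68 (permutation p = 0.0133, adjusted 0.244) and rho = 0.80 (permutation p = 0.00129, adjusted 0.029), and r was 0.75 without Sham-DMI replicates 1 and 2. Of the 45 pairs, 33 were positive, with a median r of 0.27, and the lowest was that of Hspa5 and Sdf2l1 at -0.44. The share of positive or passing pairs over all genes was not computed, so these counts do not set the members apart. Only the pair of Atf4 and Ddit3 passed an adjusted p under 0.1 by Pearson's r.

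With the trends on GC content and exon length removed, an alternative chosen after seeing the data, 9 of the 45 pairs passed. This removal also shifts each library's level, which moves all members of a library together. The share of passing pairs over all genes was not computed here either. Atf4 and Ddit3 had r = 0.86 (p = 1e-05, the smallest that the permutations can give, adjusted 0.00045). Hspa5 and Xbp1 (r = 0.82, adjusted permutation p = 0.0173), Asns and Hspa5 (r = 0.79, adjusted permutation p = 0.0356) and Asns and Xbp1 (r = 0.78, adjusted permutation p = 0.0173) came next. Both arms were thus among the pairs that passed, with Atf4, Ddit3 and Asns from the integrated stress response and Hspa5 and Xbp1 from the ER arm.

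**Figure D5:**
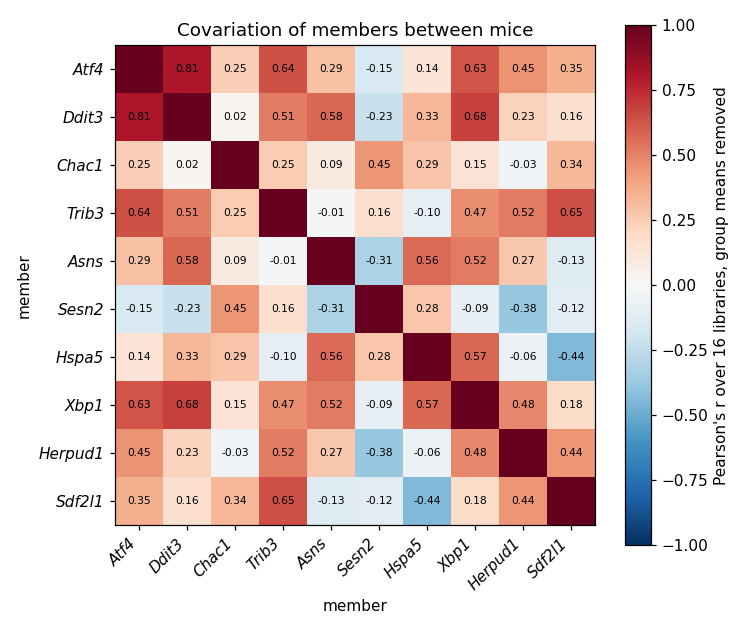
Pearson's r between members (both axes) over 16 libraries with group means removed; red is positive and blue negative. The strongest cell off the diagonal is Atf4 with Ddit3 at 0.81, and Sesn2 has mainly values near or below 0.

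The gene most like each member in this within-group variation was taken over all other tested genes, as a description over 16 libraries that share depth and composition. For Hspa5 it was Hsp90b1, the ER Hsp90, at r = 0.92 (rho = 0.88). For Atf4 it was Nosip (r = 0.96), with Rbfa and Mrpl27 next, and for Ddit3 it was Mrpl11 (r = 0.96), with Mrpl51 next. The genes nearest to the other members were Mrps18a for Xbp1 (0.90), Zfp35 for Asns (0.95), Tuft1 for Herpud1 (0.90), Hap1 for Sdf2l1 (0.88), Fbxo44 for Chac1 (0.90), Ufc1 for Trib3 (0.90) and Gm7541 for Sesn2 (0.89).

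The member promoters were searched for the exact letters of textbook response elements. Variants of these letters and sites farther away were not sought. RefSeq windows (GRCm38.p6) from 250 bases before to 50 after the start were found for all 10 members and searched on both strands. The ER stress response element, through which Atf6 and Xbp1 are known to act (CCAAT, 9 bases of any kind, CCACG), occurs in 0.119% of 32851 promoters and among the members in Hspa5. Its shorter form ERSE-II (ATTGG, 1 base, CCACG) occurs in 0.0365% and among the members in Herpud1. The C/EBP-ATF response element bound by Atf4 with its partners (TGATGNAA) occurs in 3.97% of promoters and in 4 members, Chac1, Trib3, Asns and Herpud1. The sites are shown, on the strand of the gene, as the places where member promoters hold these elements; capitals mark the motif, in the last 3 lines as its reverse complement.
Hspa5, chr2:34772025-34772043: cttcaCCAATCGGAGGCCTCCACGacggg
Herpud1, chr8:94386377-94386387: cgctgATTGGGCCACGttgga
Asns, chr6:7693225-7693232: ccacaTGATGAAActtcc
Chac1, chr2:119351049-119351056: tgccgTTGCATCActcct
Trib3, chr2:152344039-152344046: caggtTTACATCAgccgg
Herpud1, chr8:94386317-94386324: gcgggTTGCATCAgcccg

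Herpud1 was the member with a site of both kinds. Counted from the RefSeq start, the ER-arm sites of Hspa5 and Herpud1 lie 65 to 47 and 52 to 42 bases before it. The Asns site lies 23 to 16 bases before its RefSeq start, and that of Trib3 14 to 21 bases after its own. RefSeq starts differ from the GENCODE spans given above, and the sites of Hspa5 and Asns lie inside those spans. The motif TGACGTGG, an unfolded protein response element, was found in 0.676% of promoters and in no member window. The short core CCACG was found in 7 members and in 32.8% of promoters and overlaps the 2 longer ER elements. Of the 6 members called with DMI in sham, Hspa5, Herpud1 and Asns hold an ERSE, ERSE-II or C/EBP-ATF motif in this window, and Atf4, Ddit3 and Xbp1 hold none of these letters there.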

How the data were processed

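RNA from the L3-6 DRGs of 16 mice (4 per group, 1 mouse per library) was sequenced by the authors from stranded mRNA libraries. The authors aligned the reads to mm10 with NGS-Data-Charmer and deposited whole-number counts per Ensembl gene without normalization. The submitters' processing notes name HISAT2, HTSeq and DESeq2, and versions, annotation release and strand setting are not given in the sources used here. The 5 closing lines of each table, which hold 18.8% to 20.4% of read pairs not assigned to a gene, were left out.

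The analysis of counts used R 4.3.3, edgeR 4.0.16 (filterByExpr, TMM, glmQLFit and glmQLFTest on all 16 libraries, 12 residual degrees of freedom; 21371 genes) and Benjamini-Hochberg adjustment, with DESeq2 1.42.0 as an alternative. Smooth trends (basis size 8) came from mgcv 1.9.3 and were removed together with each library's mean level. CPM used TMM library sizes, and log2 CPM a prior count of 2. RPKM used the exon length in GENCODE M21, whose GRCm38 coordinates are given. The procedure was tested on simulated data. The members and lists were chosen with earlier results of these data known. All members are named; from each list the 3 genes with the smallest p past the threshold are named, plus Atf3, Eif2ak3, Ern1, Atf6, Hsp90b1, Ddit4, Ppp1r15a and Dnajb9. Olig2, Slc32a1, Cxcr2, Ms4a1 and Vpreb3 were added after their values were seen.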

Additional observations from a re-analysis of the deposited data

Results flagged for a closer look

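Hspa5 in Sham-Saline replicate 1 stood at 313.2 CPM, while the other 3 mice of the group lay between 266.8 and 270.8 CPM. The gap made up 0.914 of the group's range, above Dixon's critical value for a group of 4 samples. Of 40 combinations of member and group examined, this was 1, where chance flags about 1 in 20 groups. Without this mouse the log2 fold change of Hspa5 in Sham-DMI versus Sham-Saline was 0.26 (adjusted p = 0.00329), against 0.18 with it.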

How the results depend on the processing

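The p-values measure the spread between mice, since the chi-square per gene between replicates was 10.1 to 42.8 where counting error alone gives about 1, and members with under 10 CPM had the widest intervals. In 1240 refits of a member and a comparison, 1180 kept their direction and side of the threshold. The count of members called was 0 in SNI-Saline versus Sham-Saline and became 1 with upper-quartile scaling, 1 with DESeq2 and 2 on the 8 libraries alone, and ranged from 0 to 2 without 1 library. In SNI-DMI versus SNI-Saline it was 1 and became 3 with DESeq2 and on the 8 libraries, and 0 with the GC content and length trends removed, with or without the block, and with the nominal cut-offs, ranging from 0 to 2 without 1 library. In Sham-DMI versus Sham-Saline it was 6, 5 without a filter on low counts (Herpud1 0.15, adjusted p = 0.102), 4 with block and trends together (Xbp1 0.14, adjusted p = 0.104) and 0 with the nominal cut-offs. With the replicate number as a block the counts were 0, 1, 6, 0 and 0; same-numbered mice correlated from -0.08 to 0.18, so the numbers were not taken as pairs. All genes called under the block were 2106, 172, 4739, 70 and 0, against 2571, 626, 5010, 86 and 0 without it. With the trends removed they were 814, 1, 3731, 207 and 0, without a filter 2094, 568, 4143 and 310, by DESeq2 3390, 1859, 5580, 502 and 16, and on the 8 libraries 3434, 1812, 3742 and 9. Without 1 library they ranged from 682 to 3286, 0 to 1842, 3286 to 6094, 17 to 850 and 0 to 1. Of the pathway genes named for a call, 12 of 19 after injury, 11 of 11 for DMI under SNI and 6 of 29 for DMI in sham lost it without some 1 library. The cause of these shifts was not tested.

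Changes of sign arose as follows. Removing the trends also shifted the median over all genes, from -0.001 to -0.024 in SNI-Saline versus Sham-Saline. In Sham-DMI versus Sham-Saline this median moved from -0.021 to 0.044, and in SNI-DMI versus SNI-Saline from -0.005 to 0.021. In SNI-DMI versus Sham-DMI it moved from 0.001 to -0.061. With the trends removed, and with block and trends together, SNI-Saline versus Sham-Saline gave Xbp1 -0.087 and -0.086, Herpud1 -0.033 and -0.033, and Sdf2l1 -0.123 and -0.125. SNI-DMI versus Sham-DMI gave Atf4 -0.072 and -0.068, Chac1 -0.057 and -0.057, Hspa5 -0.024 and -0.023, Xbp1 -0.058 and -0.057, and Herpud1 -0.088 and -0.088. In Sham-DMI versus Sham-Saline, Yme1l1 turned to 0.019 and 0.020 and Mbtps2 to 0.035 and 0.034. Without 1 library each, values near 0 turned in SNI-Saline versus Sham-Saline (Sdf2l1 from -0.045 to 0.078, Xbp1 from -0.010 to 0.039), SNI-DMI versus SNI-Saline (Trib3 from -0.113 to 0.102, Sesn2 from -0.113 to 0.020), SNI-DMI versus Sham-DMI (Trib3 from -0.167 to 0.048, Hspa5 from -0.010 to 0.035, Ddit3 from -0.025 to 0.131) and the difference between the DMI effects (Sesn2 from -0.044 to 0.124). The median r of the 45 pairs was 0.581 with group means kept and 0.322 with the trends removed.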
